A study of Mus musculus with 6 samples.

Results

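Transcript levels of the core pluripotency factors Pou5f1 (Oct4), Nanog, Sox2, Sall4 and Foxd3 were followed through days 3 to 5 of differentiation of mouse embryonic stem cells (ESCs), in cultures with and without an induced microRNA cluster. Probe sets were taken where the array annotation gave a member as their single gene symbol. All 5 genes were found, on 6 of the 45037 probe sets, among 18193 genes in all. Where a gene had more than 1 probe set, the one with the highest mean over the 6 arrays was its main value, and only Sall4 had a second one. The cells were A2.miR200c ESCs, A2lox cells carrying the miR-200c/miR-141 cluster behind a doxycycline-responsive element. They were grown without leukemia inhibitory factor as embryoid bodies, suspended cell aggregates, in Petri dishes with serum. Induced cultures received 500 ng/mL doxycycline on days 2 and 4, and untreated cultures of the same line received none. RNA was taken on days 3, 4 and 5, which gave 1 Affymetrix MOE430 2.0 array for each treatment on each day.

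All cultures came from a single engineered line, no array was replicated within a day, and no line treated with doxycycline but lacking the inducible microRNAs was on these arrays. An effect of doxycycline itself therefore cannot be told apart from one of the microRNAs. Values are the deposited model-based intensities on a linear scale, and log2 differences were taken on log2(intensity + 50), which understates changes of dim probe sets. Intensities of different members were not set against each other, since each probe set has its own affinity. The sums over marker lists given later do add intensities of different genes, so bright probe sets weigh most in them. Probe sets for 78 receptor genes that are silent in such cells, mainly olfactory receptors, put background at an intensity of 36.7. Array medians lay between 34.5 and 36.9, and 48.8% to 50.1% of all probe sets were above background. As a check of the treatment, Hprt, beside which the inducible locus of A2lox cells lies, read 1671, 2539 and 2977 in induced cultures on days 3, 4 and 5, against 234, 125 and 102 in untreated cultures. Hprt was thus higher in the induced culture on each day.

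Pou5f1, Sox2 and Nanog are transcription factors that hold ESCs in the pluripotent state. Pou5f1 and Sox2 bind DNA together at composite sites, at enhancers of their own genes, of Nanog and of many other ESC genes. Sall4, a zinc finger protein, and Foxd3, a forkhead protein that keeps ESCs from differentiating early, act alongside them. In the embryo, Pou5f1 and Nanog stay on in the epiblast and are lost as it gastrulates, whereas Sox2 is also kept in neural tissue and Sall4 in several differentiating tissues. The miR-200 family, to which both induced microRNAs belong, is best known for holding cells epithelial by repressing Zeb1 and Zeb2. A microRNA finds its targets mainly through its seed, bases 2 to 8, so the mature sequences of the induced cluster are shown here from RefSeq on mouse build GRCm38.p6, with the seed in capitals. miR-200c-3p lies at chr6:124718324-124718346 and miR-141-3p at chr6:124717917-124717938, both on the minus strand.

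mmu-miR-200c-3p: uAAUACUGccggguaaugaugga

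mmu-miR-141-3p: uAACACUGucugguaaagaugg

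The 2 seeds differ at 1 of 7 bases, so the cluster carries both seed types of the family. The promoters of Pou5f1, Nanog and Sox2 are shown next because these factors bind one another's genes. Promoter windows of 300 bases, 250 before and 50 after a transcription start, were found in RefSeq (GRCm38.p6) for 4 of the 5 members. They were searched on both strands for TTTGCAT (a POU factor octamer form), ACAATG (a SOX site form) and AGGTCA (the half-site of nuclear receptors such as Nr6a1, a repressor of Pou5f1), and matches are in capitals. Windows shown are chr17:35505782-35506081 for Pou5f1, chr6:122707239-122707538 for Nanog and chr3:34649745-34650044 for Sox2, all on the plus strand.

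Pou5f1: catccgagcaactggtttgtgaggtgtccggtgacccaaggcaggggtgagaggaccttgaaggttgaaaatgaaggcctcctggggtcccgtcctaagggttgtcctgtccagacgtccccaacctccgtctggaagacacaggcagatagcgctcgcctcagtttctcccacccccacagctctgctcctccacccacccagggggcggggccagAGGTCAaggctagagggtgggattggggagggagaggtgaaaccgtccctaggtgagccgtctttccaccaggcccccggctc

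Nanog: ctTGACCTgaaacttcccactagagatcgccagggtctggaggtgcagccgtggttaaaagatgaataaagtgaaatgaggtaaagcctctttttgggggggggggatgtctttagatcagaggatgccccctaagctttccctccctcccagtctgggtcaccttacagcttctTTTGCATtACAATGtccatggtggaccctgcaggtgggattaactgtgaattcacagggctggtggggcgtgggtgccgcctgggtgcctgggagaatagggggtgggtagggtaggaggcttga

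Sox2: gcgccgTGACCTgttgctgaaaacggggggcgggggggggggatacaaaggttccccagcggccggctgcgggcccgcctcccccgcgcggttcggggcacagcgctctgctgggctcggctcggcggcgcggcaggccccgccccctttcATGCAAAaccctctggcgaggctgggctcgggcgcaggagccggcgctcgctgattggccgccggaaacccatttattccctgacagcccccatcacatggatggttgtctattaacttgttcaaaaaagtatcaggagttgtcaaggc

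The Nanog window held an octamer form at -75 and a SOX form at -67 from the start, with 1 base between them, and a receptor half-site on the other strand at -248. Both of the first matches lay also in the second Nanog window, whose start site is further downstream. The Sox2 window held an octamer form on the other strand at -99 and a receptor half-site on the other strand at -244. The Pou5f1 window held only a receptor half-site, at -33, and a second Pou5f1 window, for another start, held a SOX form at -158. The Foxd3 window held none of these letters. Among all 32851 mouse promoter windows of this length, 4.63% held the octamer form, 12.6% the SOX form, 16.3% the receptor half-site and 0.813% both of the first pair. A match describes the letters of the window and does not show binding.

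Pou5f1, Nanog and Sox2 were at close levels in induced and untreated cultures on day 3, and on day 5 each was higher in the induced culture. Pou5f1 was 2.90-fold, Nanog 3.95-fold and Sox2 1.96-fold higher on that day by the ratio of intensities, while Sall4 read 6015 in the induced and 5403 in the untreated culture and Foxd3 was near or below background. Each ratio rests on 1 array against 1, and in RNA from whole cultures fewer cells of a type and less RNA per cell cannot be told apart.

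**Figure D1:**
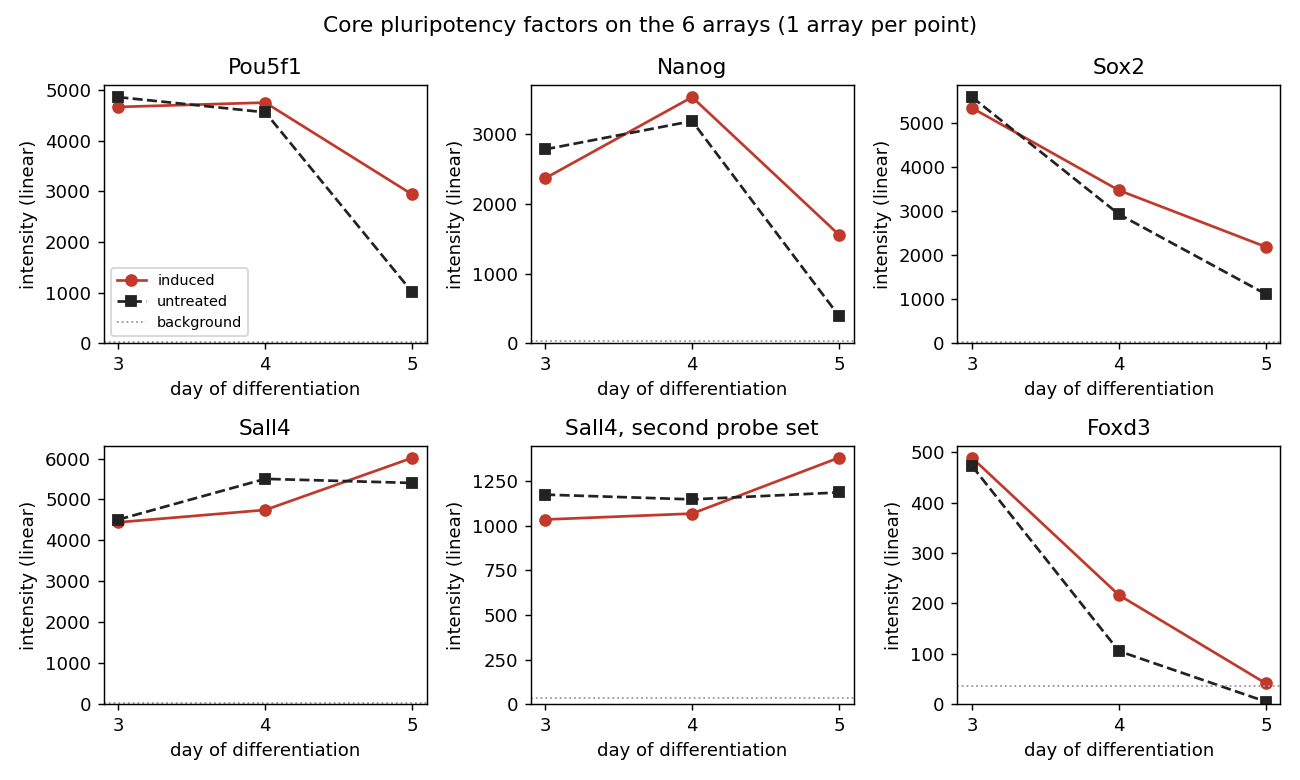
Intensity of each core factor's probe set (linear axis from 0, Sall4 with both of its probe sets) on days 3, 4 and 5, with 1 array per point for induced (red) and untreated (black) cultures and background dotted. On day 5 the induced culture reads 2940.2 against 1014 for Pou5f1, 1555 against 394 for Nanog and 2190.0 against 1120 for Sox2.

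Pou5f1 (Entrez 18999, probe set 1417945_at) read 4665, 4751 and 2940.2 in induced cultures on days 3, 4 and 5, against 4858, 4560.0 and 1014 in untreated cultures. The 4 arrays of days 3 and 4 lay close together whatever the treatment, and the untreated day 5 array was the lowest of the 6. As a share of its own day 3 level, Pou5f1 was at 102% on day 4 and 63.0% on day 5 in induced cultures, against 93.9% on day 4 and 20.9% on day 5 in untreated cultures. On the log2 scale the induced minus untreated difference was -0.06 on day 3, 0.06 on day 4 and 1.49 on day 5. With straight lines between days in log2(intensity), here and for the other members, the untreated culture passed 50% of its day 3 level at day 4.42. The induced culture did not reach it by day 5. The induced day 5 level matched that of the untreated line at day 4.29.

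Nanog (Entrez 71950, probe set 1429388_at), the homeodomain factor that guards against differentiation in ESCs, read 2363, 3523 and 1555 in induced cultures, against 2777, 3181 and 394 in untreated cultures. In both treatments day 4 was the highest day and day 5 the lowest, and the untreated day 5 array stood lowest of all. Day 4 was at 149% of day 3 in induced cultures and 115% in untreated cultures, and day 5 at 65.8% in induced cultures and 14.2% in untreated cultures. The induced minus untreated log2 difference was -0.23 on day 3, 0.15 on day 4 and 1.85 on day 5. The untreated culture crossed 50% of its day 3 level at day 4.40, the induced culture not by day 5, and the induced day 5 level matched the untreated line at day 4.34.

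Sox2 (Entrez 20674, probe set 1416967_at), the HMG box partner of Pou5f1, read 5335, 3470.25 and 2190.0 in induced cultures, against 5581, 2928 and 1120 in untreated cultures. Unlike Pou5f1 and Nanog, it read lower on each day than on the day before in both treatments, so that day 4 already stood at 65.0% of day 3 in induced cultures and 52.5% in untreated cultures. Day 5 stood at 41.0% in induced cultures and 20.1% in untreated cultures. The induced minus untreated log2 difference was -0.06 on day 3, 0.24 on day 4 and 0.94 on day 5. The 50% level was crossed at day 4.57 in the induced culture and day 4.05 in the untreated culture, and the induced day 5 level matched the untreated line at day 4.30.

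Foxd3 (Entrez 15221, probe set 1422210_at) read 489, 216 and 41.4 in induced cultures, against 472, 105 and 5.14 in untreated cultures. It was the earliest of the members to decline in both treatments, and the untreated day 5 array was the only member reading below background. Day 4 stood at 44.3% of day 3 in induced cultures and 22.3% in untreated cultures, and the 50% level was crossed at day 3.85 in the induced culture and day 3.46 in the untreated culture. The induced minus untreated log2 difference was 0.04 on day 3 and 0.78 on day 4, with a ratio of intensities of 2.05 on day 4. On day 5 it was 0.73 as deposited but 0.077 with the untreated reading raised to background. On day 5 the induced culture was at least 1.13-fold over the untreated one with the untreated reading set to background, and the full ratio on that day has only this bound. Between days 3 and 5 the level was 11.8-fold lower in induced cultures and at least 12.9-fold lower in untreated cultures, whose day 5 reading was again set to background.

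Sall4 (Entrez 99377, probe set 1424152_at) read 4442, 4744 and 6015 in induced cultures, against 4509, 5503 and 5403 in untreated cultures. Its treatments overlapped and none of its arrays read below the induced day 3 array, so Sall4 shared none of the decline of the other members. Its second probe set, 1424153_s_at, read 1035, 1068 and 1382 in induced cultures, against 1175, 1148 and 1187 in untreated cultures. Day 5 stood at 135% of day 3 in induced cultures and 120% in untreated cultures by the main probe set, and at 134% in induced cultures and 101% in untreated cultures by the second. The probe sets gave the same order of treatments on day 5, with log2 differences of 0.15 and 0.21.

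**Figure D2:**
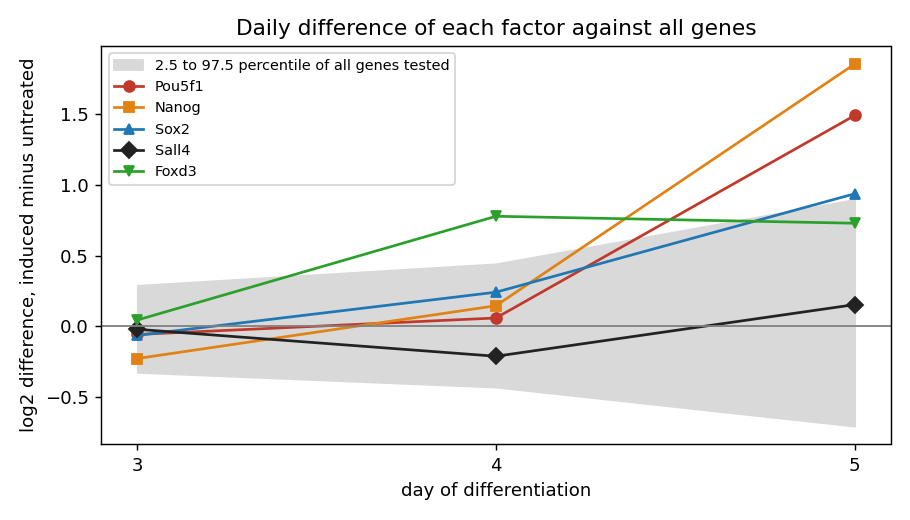
Induced minus untreated difference in log2(intensity + 50) on each day for the 5 members (1 array against 1 per point), beside the spread of all 9997 genes tested. Pou5f1, Nanog and Sox2 leave the central 95% of genes on day 5, which runs from -0.71 to 0.90, and Foxd3, whose day 5 point rests on an untreated reading below background, leaves it on day 4.

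Set against all 9997 genes tested, the members were ordinary on day 3 and stood apart later. The central 95% of genes ran from -0.33 to 0.29 for the induced minus untreated difference on day 3, from -0.43 to 0.44 on day 4 and from -0.71 to 0.90 on day 5. All 5 members lay inside this range on day 3. On day 4 only Foxd3 lay above it, and on day 5 Pou5f1, Nanog and Sox2 lay above it. At 2-fold, 0 members were higher in induced cultures on day 3, when 0.01% of all genes were, and 0 on day 4, when 0.08% were. On day 5 it was 2 of 5, Pou5f1 and Nanog, against 1.97% of all genes, with Sox2 just short of 2-fold on this scale. No test can be made within a day.

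The decline of the members over time was tested first with both treatments together. Foxd3, Sox2 and Pou5f1 fell between days 3 and 5, Nanog lay at the threshold, and Sall4 rose slightly. In limma's fit with treatment and day (all 6 arrays, 2 residual degrees of freedom, Benjamini-Hochberg adjustment over 9997 genes), day 5 minus day 3 was -2.90 ± 0.21 for Foxd3 (log2 ± SE; adjusted p = 0.00187), -1.77 ± 0.23 for Sox2 (adjusted p = 0.00591), -1.43 ± 0.39 for Pou5f1 (adjusted p = 0.0382) and -1.63 ± 0.50 for Nanog (adjusted p = 0.0531). Sall4 changed by 0.35 ± 0.09 (adjusted p = 0.0328). Thus 3 of 5 members were called lower, where 19.2% of all genes were, and 1 was called higher, where 20.6% were. Nanog passed with quantile normalization (limma adjusted p = 0.0448) and with a treatment by linear day term added (adjusted p = 0.00108). It did not pass with no filter on low values (adjusted p = 0.0641), without the intensity trend (adjusted p = 0.0782) or with the mean over probe sets (adjusted p = 0.0734). Its change was -0.68 without the untreated day 5 array and -2.58 without the induced one. It was -1.02 without the untreated day 3 array and -2.24 without the induced one. With a day 5 array left out, the other is fitted exactly, so the spread comes from days 3 and 4 alone. The calls of Pou5f1 and Sall4 were near the threshold: without the untreated day 3 array the limma adjusted p was 0.195 for Pou5f1 and 0.136 for Sall4, and without the induced day 3 array it was 0.0596 for Pou5f1 and 0.121 for Sall4. Without either day 4 array, Pou5f1 had an adjusted p of 0.0613, and with the mean of both Sall4 probe sets that of Sall4 was 0.0861.

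The changes were then tested interval by interval, and Foxd3 was the one member called in each. Between days 3 and 4, Foxd3 changed by -1.38 ± 0.21 (log2 ± SE, limma adjusted p = 0.0314) and was the only member called, against 4.54% of all genes called lower. Sox2 changed by -0.77 ± 0.23 over the same interval (adjusted p = 0.0986), with 95% interval -1.36 to -0.17 before adjustment. Pou5f1 was at -0.03 ± 0.39 (adjusted p = 0.961) and Nanog at 0.38 ± 0.50 (adjusted p = 0.625), neither distinguishable from 0 but with wide errors.

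Between days 4 and 5, Foxd3 again changed by -1.52 ± 0.21 (limma adjusted p = 0.032) and was the only member called, against 2.33% of all genes called lower. Pou5f1 was at -1.40 ± 0.39 (adjusted p = 0.0885), Nanog at -2.01 ± 0.50 (adjusted p = 0.0745) and Sox2 at -1.0 ± 0.23 (adjusted p = 0.0658). In this fit the gap between the treatments on day 5 counts as noise. When a treatment by linear day term was added, 4 members were called lower between days 4 and 5, where 9.7% of all genes were. The Foxd3 call between days 3 and 4 was lost without either day 3 or either day 4 array, and that between days 4 and 5 without either day 4 array, and both were near the threshold (limma adjusted p = 0.0517 with a pseudocount of 16 for the first and 0.0519 without the intensity trend for the second).

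**Figure D3:**
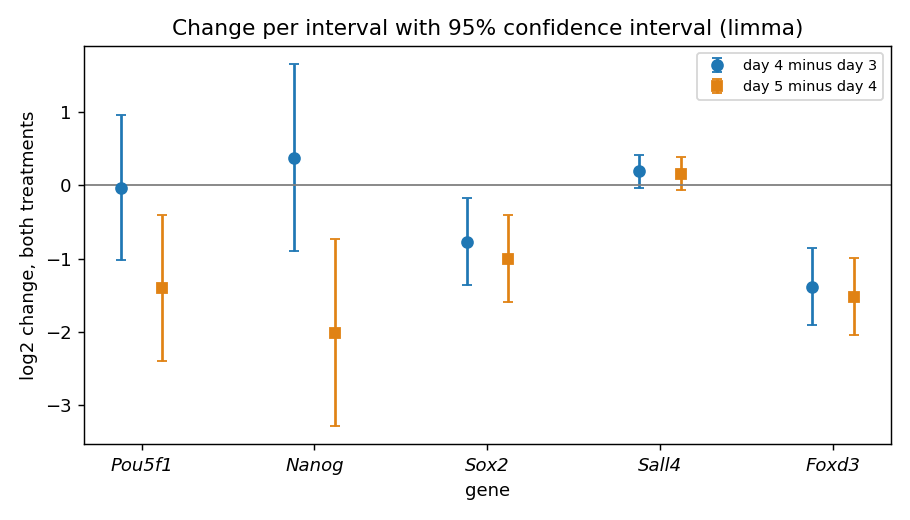
Change in log2(intensity + 50) of each member between days 3 and 4 (circles) and days 4 and 5 (squares), both treatments together, as limma's estimate with its 95% confidence interval before adjustment. Pou5f1 lies at -0.03 and Nanog at 0.38 in the first interval and at -1.40 and -2.01 in the second, whereas both Foxd3 intervals lie below 0, at -1.38 and -1.52.

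Within each treatment, Pou5f1 and Nanog showed the larger gap in the last interval. From day 4 to day 5 the log2 change of Pou5f1 was -0.68 in induced and -2.12 in untreated cultures, that of Nanog -1.15 in induced and -2.86 in untreated cultures, and that of Sox2 -0.65 in induced and -1.35 in untreated cultures. Foxd3 changed by -1.54 in induced and -1.49 in untreated cultures over this interval (-0.84 in untreated cultures with the day 5 reading raised to background), and by -1.02 in induced and -1.75 in untreated cultures over the one before. By these readings, with 1 array per point, the treatments parted between days 3 and 4 for Foxd3 and between days 4 and 5 for Pou5f1 and Nanog. For Sox2 the gap widened in both intervals, and more in the last. Its change between days 3 and 4 was -0.61 in induced and -0.92 in untreated cultures. At 2-fold, 2 members were lower on day 5 than on day 4 in induced cultures (Nanog and Foxd3), where 0.61% of all genes were, and 4 in untreated cultures (all but Sall4, with Foxd3 no longer among them when raised to background), where 2% were. From day 3 to day 5 it was 2 members in induced cultures (Sox2 and Foxd3), where 3.07% of all genes were, and the same 4 in untreated cultures, where 4.86% were.

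Straight slopes over the 3 days were tested for each treatment, in a joint fit of all 6 arrays. Sox2 and Foxd3 fell in both treatments, and no other member passed. Sox2 had a slope of -0.63 ± 0.07 per day in induced cultures (log2 ± SE, limma adjusted p = 0.0291) and -1.13 ± 0.07 in untreated cultures (adjusted p = 0.00925). Foxd3 had -1.28 ± 0.11 in induced cultures (adjusted p = 0.0257) and -1.62 ± 0.11 in untreated cultures (adjusted p = 0.00925). Pou5f1 had -0.33 in induced cultures (adjusted p = 0.484) and -1.10 ± 0.28 in untreated cultures (adjusted p = 0.0621), and Nanog -0.29 in induced cultures (adjusted p = 0.704) and -1.34 ± 0.45 in untreated cultures (adjusted p = 0.115). The 2 members called lower in each treatment stand against 2.57% of all genes in induced cultures and 6.03% in untreated cultures. Bending between days counts as noise in this fit. Both treatments share that noise, so bending in the untreated cultures also widens the error of the induced slopes. Without the intensity trend Sox2 in induced cultures lost its call (limma adjusted p = 0.0569).

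Whether the treatments differed was tested in 2 ways, and neither called a member or any other gene. As a constant difference over the 3 days, induced minus untreated was 0.52 ± 0.17 for Foxd3 (log2 ± SE, limma adjusted p = 0.573), 0.59 ± 0.41 for Nanog (adjusted p = 0.663), 0.50 ± 0.32 for Pou5f1 (adjusted p = 0.641), 0.37 ± 0.19 for Sox2 (adjusted p = 0.599) and -0.03 for Sall4 (adjusted p = 0.921). limma called 0 members and 0% of all genes higher. At an unadjusted p under 0.05 it gave 1 member, Foxd3, and 842 genes. The smallest limma adjusted p of all genes was 0.573, so Hprt, the check of the treatment, was not called either. A gap that changes with the day counts as noise in this fit, so a gap confined to day 5 could hardly be called. With the reading below background raised to it, the Foxd3 difference was 0.30 (limma adjusted p = 0.635). Foxd3 was also the only member higher in induced cultures on all 3 days, whereas Pou5f1, Nanog and Sox2 were higher on 2 of 3.

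As a difference that grows with the days, the treatment by day term was 1.04 ± 0.17 per day for Nanog (log2 ± SE, limma adjusted p = 0.132), 0.77 ± 0.16 for Pou5f1 (adjusted p = 0.174), 0.50 ± 0.07 for Sox2 (adjusted p = 0.110), 0.34 ± 0.14 for Foxd3 (adjusted p = 0.379) and 0.09 for Sall4 (adjusted p = 0.679). Here too 0% of all genes were called higher, with a smallest limma adjusted p of 0.105 over all genes. At an unadjusted p under 0.05 there were 3 members and 1322 genes. By size of the term, 35 of 9997 genes had a larger one than Nanog and 96 a larger one than Pou5f1, against 328 for Sox2 and 5074 for Sall4. The Foxd3 term rests on the untreated day 5 reading below background and was 0.016 with that reading raised to it (limma adjusted p = 0.983). Only 1 residual degree of freedom is left in this fit. With the term written as a step at day 5 instead, an alternative chosen with earlier results of these data known, Pou5f1 had 1.49 ± 0.09 (limma adjusted p = 0.000942), Nanog 1.90 ± 0.16 (adjusted p = 0.00194) and Sox2 0.85 ± 0.13 (adjusted p = 0.0158), 3 of 5 members against 2.14% of all genes called higher. Foxd3 had 0.32 ± 0.30 (adjusted p = 0.706) and Sall4 0.27 (adjusted p = 0.221).

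**Figure D4:**
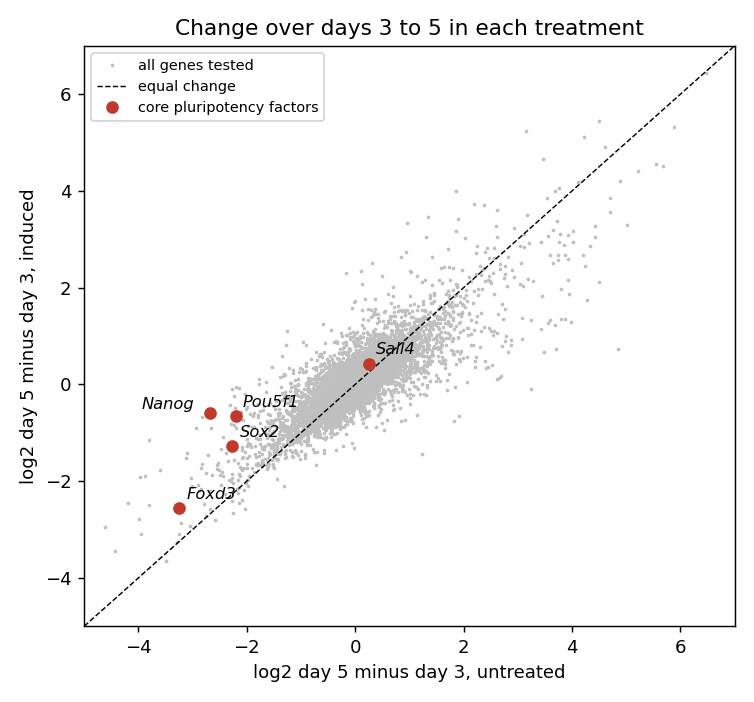
Change in log2(intensity + 50) between days 3 and 5 in induced cultures (vertical) against untreated cultures (horizontal), for all 9997 genes tested (grey) and the 5 members (red), with the line of equal change dashed. Nanog lies at -0.59 in induced and -2.67 in untreated cultures and Pou5f1 at -0.66 in induced and -2.21 in untreated cultures, above the line.

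As a description, the members were placed among the genes that declined in untreated cultures. The gap used here is the difference between treatments in the day 5 minus day 3 change. It restates the treatment by day term and is no further evidence. In untreated cultures 486 genes read at least 2-fold lower on day 5 than on day 3, and 255 of them (52.5%) did so in induced cultures too. Their median log2 change was -1.03 in induced cultures and -1.40 in untreated cultures, and the median gap was 0.41. Choosing genes by the untreated arrays favours a smaller change in the induced ones, and among the 307 genes at least 2-fold lower in induced cultures the medians were -1.34 in induced cultures and -1.49 in untreated cultures, with 83.1% also lower in untreated cultures. The gap was 2.08 for Nanog, exceeded by 6 of the 486 genes, 1.55 for Pou5f1, exceeded by 27, and 1.0 for Sox2, exceeded by 87. For Foxd3 it was 0.69 as deposited and 0.032 with the untreated day 5 reading raised to background. Sall4 was not among these genes. Nanog and Pou5f1 were not among the 307 genes, at -0.59 and -0.66 in induced cultures. Their places among the 486 genes thus rest on the untreated arrays that selected them.

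Over the 6 arrays the members fell into 2 patterns and an exception, given here as descriptions. Pou5f1 and Nanog had a Pearson r of 0.98 and Sox2 and Foxd3 one of 0.98, whereas Pou5f1 and Sox2 had 0.90 and Nanog and Foxd3 0.74. Sall4 was negatively related to the other members, from -0.41 with Nanog to -0.87 with Foxd3. Most alike to Pou5f1 among 9992 other genes were Mtm1 (r = 0.9989), a lipid phosphatase, Pim2 (r = 0.9985), a serine/threonine kinase, and Mgst1 (r = 0.9976), a membrane glutathione transferase. Pim2 read 4015, 4649 and 1788 in induced cultures, against 4718, 4351 and 290 in untreated cultures, the same late gap as Pou5f1. For Nanog the nearest were Nefm (r = 0.995), a neurofilament subunit, Shroom2 (r = 0.9917), an actin-binding protein, and Shc1 (r = 0.9915), a signalling adaptor. For Sox2 they were Rps4l, a ribosomal protein gene (r = 0.999), Rif1 (r = 0.9984), a replication timing factor, and Ipo8 (r = 0.9977), a nuclear import receptor. For Foxd3 they were Uri1, Platr10 and Nudt1 (r = 0.9995, 0.9994 and 0.9991), and Platr10, a noncoding RNA named for its association with pluripotency, read 732, 389 and 121 in induced cultures, against 726, 233 and 55.4 in untreated cultures. For Sall4 they were Ttbk2, Lhx1os and Ap1s2 (r = 0.9942, 0.9926 and 0.9889). The arrays share culture and day, r ignores the size of a change, and the highest of many values over 6 points are high by choice.

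The partners of the core factors were lower on day 5 than on day 3 in most cases. Of 24 tested partners, from chromatin proteins to RNA-binding proteins, 18 were called lower on day 5 than on day 3 in limma's fit and 0 higher, where 19.2% of all genes were lower and 20.6% higher. Their median log2 change was -0.62 in induced cultures and -1.21 in untreated cultures, where the median of all genes was 0.02 in induced cultures and -0.02 in untreated cultures. On day 5, 18 of 24 read higher in the induced culture, where 5323 of all 9997 genes tested did. The median difference of the partners was 0.32, against 0.02 for all genes. L1td1, an RNA-binding protein, had the largest at 1.85, followed by Utf1, a chromatin factor, at 1.22 and Etv5, an ETS factor, at 0.94. Dppa2 and Dppa4, chromatin factors of early embryos, had small differences of -0.16 and 0.28 on day 5 while their day 5 minus day 3 change was -3.57 and -2.74.

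Among targets of joint Pou5f1 and Sox2 enhancers, Lefty1 and Utf1 had a gap between treatments and Fgf4 had none above background. Of 8 tested, 3 of them members, 7 were called lower on day 5 than on day 3, where 19.2% of all genes were. Lefty1, a Nodal inhibitor, read 4903, 2567 and 1273 in induced cultures, against 4569.9, 1852 and 246 in untreated cultures, and was the one with the largest day 5 difference, 2.16. Utf1 read 2359, 1024 and 301 in induced cultures, against 2357, 531 and 101 in untreated cultures, higher in the induced culture from day 4 on. Fgf4, a growth factor made by ESCs, read 333, 31.6 and 21.5 in induced cultures, against 302, 27.5 and 22.5 in untreated cultures, and so was below background from day 4 on in both treatments.

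**Figure D5:**
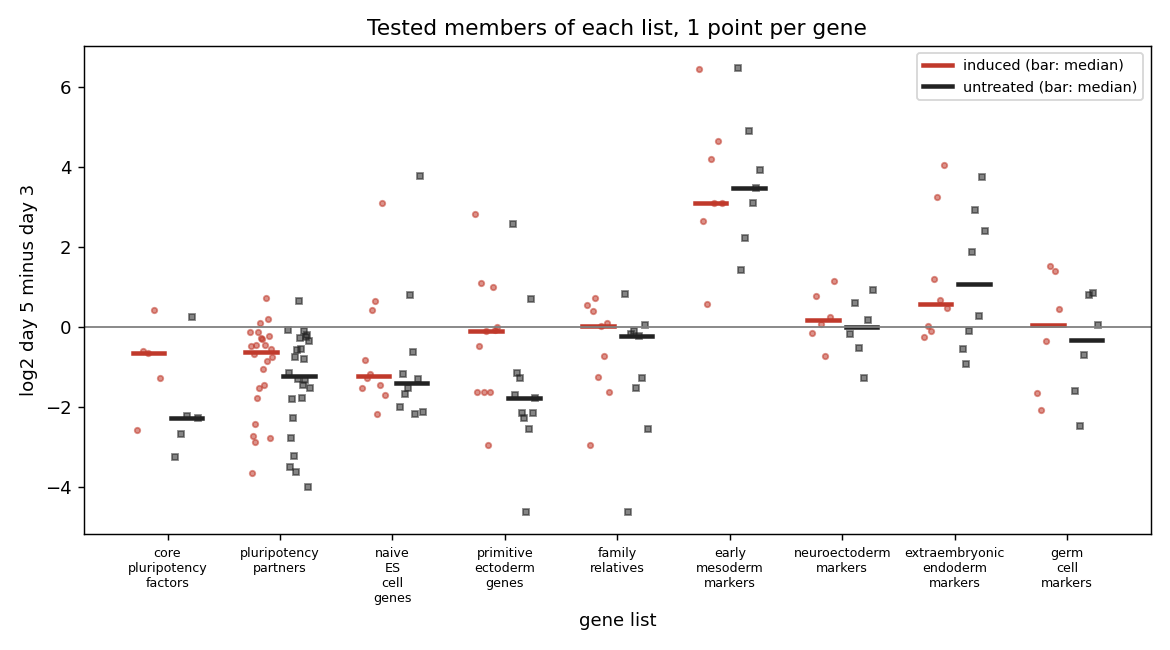
Change in log2(intensity + 50) between days 3 and 5 for each tested gene of 9 lists (1 point per gene), induced and untreated cultures side by side, with the median as a bar. The median of the core factors is -0.66 in induced and -2.27 in untreated cultures, that of the primitive ectoderm genes -0.09 in induced and -1.77 in untreated cultures, and that of the naive ESC genes -1.21 in induced and -1.41 in untreated cultures.

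The core factors are shared by the naive ESC state and by the primitive ectoderm, the epithelium that follows it. Genes listed for each state were read beside them, though a listed gene need not be particular to its state. Of 11 tested primitive ectoderm genes, all read higher in the induced culture on day 5 and 5 at least 2-fold. Over all 9997 genes tested, 5323 read higher on that day and 1.97% at least 2-fold. The median day 5 difference of the primitive ectoderm genes was 0.82, against 0.94 for the core factors. It was 0.21 for 10 tested naive ESC genes, of which 1 was at least 2-fold higher. Fgf5 (2.33), Otx2 (2.14) and Zic5 (1.85) had the largest differences among primitive ectoderm genes. Fgf5 read 1236, 2833 and 2715 in induced cultures, against 1265, 2746 and 499 in untreated cultures. In the naive list, Klf5 stood at 1.24, Dppa5a at 0.52 and Tbx3, also a mesoderm gene, at -0.97. Of the naive genes 7 were called lower between days 3 and 5 and 2 higher, and of the primitive ectoderm genes 5 were called lower and 2 higher, where 19.2% of all genes were lower and 20.6% higher, so the counts of higher genes are near those of all genes. The primitive ectoderm genes called higher were Cdh2 (N-cadherin) and Sox4. No test compared these lists.

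Among 9 tested relatives of the core factors, POU, SOX, SALL and forkhead genes, 4 were called lower between days 3 and 5 and 1 higher, against 19.2% lower and 20.6% higher among all genes. Pou3f1 (Oct6), a POU factor of the primitive ectoderm, read 3610.4, 1637 and 422 in induced cultures, against 3711, 1024 and 103 in untreated cultures, the largest day 5 difference of the list at 1.63. Sox3 read 416, 285 and 102 in induced cultures, against 451, 141 and 36.2 in untreated cultures. Both of these read lower on each day than on the day before, with a higher level in the induced culture on days 4 and 5, as Sox2 did. Sall1 read 1682, 1639 and 2826 in induced cultures, against 1759, 2122 and 1627 in untreated cultures. Sall1 thus stood highest on the induced day 5 array, as Sall4 did.

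Genes that repress Pou5f1 or Nanog did not share a direction. Of 6 tested, 3 were called higher and 1 lower on day 5 than on day 3, against 20.6% higher and 19.2% lower among all genes. Nr6a1 (GCNF), the nuclear receptor that silences Pou5f1 in differentiating cells, read 1427, 1655 and 1551 in induced cultures, against 1227, 1626 and 897 in untreated cultures. Cdx2, a caudal factor that opposes Pou5f1 in trophoblast, read 15.9, 41.8 and 66.4 in induced cultures, against 23.3, 98.6 and 485 in untreated cultures. Cdx2 was below background in both treatments on day 3 and lower in the induced culture on days 4 and 5, and Nr6a1 was higher on day 5 (0.76). Eomes, a T-box factor of streak and trophoblast, had a day 5 difference of 0.64.

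Since the factors are also found outside ESCs, markers of other cell types were read beside them, and their part in the results was not tested. For the neural tissue that keeps Sox2, the summed level of 9 markers was 2649.8, 2956 and 3260.2 in induced cultures, against 3188, 3444 and 3536 in untreated cultures, and Sox1, Pax6, Neurog2 and Hes5 were below background on both day 5 arrays. Most of each sum was Sox11, at 2414 in the induced and 2785 in the untreated culture on day 5, while Nes read 299 in the induced and 149.7 in the untreated culture. For the germ cells, which keep Pou5f1 and Nanog, 8 markers summed to 1137, 868 and 1101 in induced cultures, against 1118, 851 and 634 in untreated cultures. Prdm14 was below background on all 6 arrays. These sums hide markers that ran opposite ways. limma called 3 of 6 tested lower and 1 higher on day 5 than on day 3. Over all genes 19.2% were called lower and 20.6% higher, so the count called higher is near the general share. The log2 change over these days in induced cultures was -2.07 for Ddx4 and -1.65 for Dazl, but 1.52 for Kit and 1.39 for Prdm1. In untreated cultures it was -2.48 for Ddx4 and -1.59 for Dazl, but 0.79 for Kit and 0.855 for Prdm1. For the extraembryonic endoderm, where Sall4 is also expressed, 10 markers summed to 1356, 2416 and 6253 in induced cultures, against 1585, 3365 and 5703 in untreated cultures, with Afp below background throughout. Sox17 gave most of the day 5 sum, 3875 in the induced and 2914 in the untreated culture, while Sox7 (167 in the induced and 756 in the untreated culture) and Gata4 (157 in the induced and 268 in the untreated culture) ran the other way.

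Early mesoderm markers were higher on day 5 than on day 3 where Pou5f1, Sox2 and Foxd3 were lower. Their median log2 change was 3.10 in induced and 3.47 in untreated cultures. Sall4 was also called higher, but by only 0.35, a change that 40.4% of all genes exceeded in size. Its second probe set was at 101% of day 3 in untreated cultures. The 9 markers summed to 826, 6501 and 15936 in induced cultures, against 1149, 13045 and 15788 in untreated cultures, and 6 of 7 tested were called higher on day 5 than on day 3, where 20.6% of all genes were. On day 4 their median induced minus untreated difference was -1.36, when Pou5f1, Nanog and Sox2 differed by at most 0.24, and on day 5 it was -0.10, when those factors differed most. On day 5 the markers went both ways, with Hand1 at -1.70, Pdgfra at -0.88 and Kdr at -0.82, against Mixl1 at 0.96 and Eomes at 0.64. Msgn1 was below background on all 6 arrays. Feeder fibroblast markers, 8 in number, summed to 235, 259 and 313 in induced cultures, against 224, 236 and 905 in untreated cultures, where Col1a1 gave 577 of the day 5 sum.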

How the data were processed

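RNA of 6 samples, induced and untreated cultures on days 3, 4 and 5, was measured on Affymetrix MOE430 2.0 arrays, and samples were grouped by GEO's labels. The authors normalized and modelled the arrays in DNA-Chip Analyzer (dChip), and deposited 1 model-based intensity per probe set on a linear scale, without detection calls. The number of arrays limits the precision. dChip's normalization sets arrays to a like overall brightness, so a change shared by most genes would not be seen, and its floor on dim probe sets is not known here. Of 45037 probe sets, 34945 carried a single gene symbol, 932 several and 9160 none, and only the first kind was used.

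Each gene took the probe set with the highest mean. A gene entered the tests if its brightest array was at or over 80.1, the median of all values of all genes, and 9997 genes did, all 5 members among them. limma 3.58.1 in R 4.3.3 was used (lmFit, eBayes with intensity trend) on log2(intensity + 50), two-sided, with Benjamini-Hochberg adjustment at 0.05. An additive fit of treatment and day and a fit of separate slopes left 2 residual degrees of freedom, and treatment by linear day left 1. With 1 array per group and day, the spread in each fit is the departure of the arrays from the model, and p-values carry no variation between cultures of a group and day. Differences within a day were counted at 2-fold without a test. Background was the 95th percentile of 78 silent receptor genes. Percentages of day 3 came from intensities in Python 3.11.15. Crossing days and days of matching level came from straight lines between days in log2(intensity), without the added 50.

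Alternatives were the pseudocount, quantile normalization, the mean over probe sets, no filter, no intensity trend, other models of day, arrays or days left out, and values below background raised to it, the last chosen after the data were seen. Members, lists, tests and the rule for named genes (the members, the 3 genes most alike to each by Pearson r, and up to 3 genes per list by day 5 difference) were chosen with earlier results of these data known. Other genes of the lists named in the text, such as Dppa2, Fgf4, Sox1 and Col1a1, were chosen after their values were seen. The tests were also run on simulated data with 200 of 9997 genes changed. The change was 2-fold for induction and for day 5, and 2-fold per day for treatment by day and the slopes. The tests recovered 82.5% for induction (7 false calls), 76.5% for day 5 minus day 3 (9) and 73% for treatment by day (18). They recovered 90% for the slope in induced cultures (8) and 93% for that in untreated cultures (10). Simulated noise was independent between arrays, and the simulated induction change was the same on each day. In the real arrays a gap that changes with the day counts as noise for induction, and limma called 0 genes there. The simulated shares therefore do not show what the tests could detect in these arrays. Sequences came from RefSeq tables of build GRCm38.p6.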

Additional observations from a re-analysis of the deposited data

Results flagged for a closer look

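A step in the induced minus untreated difference at day 5, a form chosen with earlier results of these data known, passed limma's test with 1.49 for Pou5f1 (log2, adjusted p = 0.000942), 1.90 for Nanog (adjusted p = 0.00194) and 0.85 for Sox2 (adjusted p = 0.0158). The step sets 1 pair of arrays on day 5 against the spread between the differences of days 3 and 4, with 1 residual degree of freedom, and the test with a linear day called none of these genes. Between days 3 and 4 Pou5f1 changed by 0.026 in induced cultures and by -0.0905 in untreated cultures, in opposite directions but close to 0, and this difference was not tested. Between days 4 and 5 Sall4 changed by 0.34 in induced cultures and by -0.0262 in untreated cultures, which was also not tested. Each of these untested changes rests on 1 array against 1.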

How the results depend on the processing

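Among single members, 330 results under an alternative kept their direction and side of the threshold, 25 came past it, 20 lost it and 5 turned direction. All 5 turns arose with arrays left out. With 1 array left out, Pou5f1 between days 3 and 4 ran from -0.45 to 0.38, turning without the untreated day 3 array (0.38) or the induced day 4 array (0.30), and Nanog in that interval ran from -0.23, without the induced day 3 array, to 0.99, and induced minus untreated was 0.066 for Sall4 without day 4 and -0.041 for Nanog without day 5. Of members called, day 4 minus day 3 gave 1, against 0 with a pseudocount of 16 and 2 with treatment by linear day added. Day 5 minus day 4 gave 1, against 0 without the intensity trend and 4 with linear day added. Day 5 minus day 3 gave 4, against 2 without the trend, 2 with the mean over probe sets and 5 with linear day added. The induced slope gave 2, against 1 without the trend, which lost Sox2. Induced minus untreated gave 0, against 1 (Sox2, limma adjusted p = 0.0452) with linear day added, and treatment by day gave 0, against 3 as a step at day 5. With 1 array left out, the calls ran from 0 to 4 for day 4 minus day 3, from 0 to 5 for day 5 minus day 4 and from 2 to 5 for day 5 minus day 3. The high counts came without a day 5 array. There the other day 5 array is fitted exactly, so the gap between treatments on day 5 no longer counts as noise. The low count for day 5 minus day 3 came without a day 3 array, and its cause was not tested. Over all genes, adding linear day gave 1180 higher and 1139 lower for day 4 minus day 3 (444 and 454 without it), 1250 and 970 for day 5 minus day 4 (380 and 233), and 103 and 42 for induced minus untreated (0 and 0). Leaving out 1 array was not run for the treatment terms, where it drops a day or leaves no residual degrees of freedom. Raising values below background to it changed no count of members called, but took the Foxd3 treatment by day term to 0.016. The additive fit pairs the treatments by day. No paired analysis was possible by replicate number, because each group holds 1 array and the labels number none. The dim Foxd3 readings of day 5 limit its ratio to a bound.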
